A study of Sus scrofa with 6 samples.

Results

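Nerve cells meet at synapses through pairs of adhesion proteins that reach across the cleft. Neurexins sit on the presynaptic side and bind neuroligins on the postsynaptic side, and secreted cerebellins can bridge neurexins to postsynaptic receptors. Contactin-associated proteins are relatives of the neurexins that work with contactins along the axon, CNTNAP1 at the paranodal junctions that flank each node of Ranvier and CNTNAP2 at the neighbouring juxtaparanodes, where it helps to gather potassium channels. Rare variants in several of these genes have been linked to autism, which is why they were chosen here by name from the deposited gene tables. Of 9 genes chosen, 8 had a row among the 17201 listed genes: the neurexin genes NRXN2 and NRXN3, the neuroligin genes NLGN1 and NLGN3, the contactin-associated protein genes CNTNAP1 and CNTNAP2, the contactin gene CNTN4 and the cerebellin gene CBLN4. NLGN2 is not analysed here. All 8 passed the filter on low counts, which kept 14373 genes.

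The samples were RNA from the prefrontal cortex of 6 pigs (Sus scrofa) aged 3 months, 1 library per animal. In 3 animals (391, 392 and 393) the treatment was valproic acid (VPA), an anticonvulsant that inhibits histone deacetylases, at 75 mg/kg, given in early gestation according to the series' design text. The 3 controls (401, 402 and 408) were untreated, and the series' title calls the work an autism model in the pig. The labels give neither breed, sex nor litter, nor how often the drug was given, and the part of litter in any difference was not tested. The comparison asks whether gene expression in this cortex differed between exposed and unexposed animals.

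Library totals ran from 16285517 to 17989032 counts, and levels within a gene are given as CPM, the count scaled to the library total, with 1 CPM standing for at least 16.3 reads. The cortical glutamatergic markers were present in all 6 libraries, with a summed level of 3670 to 4026 CPM over 8 genes. Markers of striatal projection neurons, which lie under the cortex, summed to 626 CPM in VPA 393 and to 179 to 240 CPM in the other 5 libraries. EIF1AY, a Y-linked gene, had 450 to 548 counts in 4 libraries, 0 in VPA 392 and 2 in control 401.

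The 8 genes covered a wide range of levels in this cortex. Levels of different genes are compared here only as FPKM, the deposited values scaled to gene length and library total. NRXN2 stood highest, at 60.8 ± 2.24 FPKM (SD over the 6 libraries), and CNTNAP1 followed at 58.6 ± 5.73 FPKM. Their ranges overlapped, and the order of the pair turned between the groups: NRXN2 had the higher mean in VPA (60.9 against 54.4 FPKM) and CNTNAP1 in controls (62.9 against 60.8 FPKM). CNTNAP2 came next at 28.1 ± 1.22 FPKM, then NLGN3 at 17.8 ± 0.568 FPKM. CNTN4, an axonal cell adhesion molecule of the immunoglobulin superfamily, had 14.8 ± 1.16 FPKM and NRXN3 had 13.3 ± 1.20 FPKM. The ranges of CNTN4 and NRXN3 overlapped, although CNTN4 was above NRXN3 in 6 of 6 libraries. NLGN1, a neuroligin of excitatory synapses, stood at 5.79 ± 0.331 FPKM and CBLN4 at 1.04 ± 0.226 FPKM. No other neighbours in this order had overlapping ranges: from each to the next the mean dropped by a factor of 2.09 (CNTNAP1 to CNTNAP2), 1.57 (CNTNAP2 to NLGN3), 1.20 (NLGN3 to CNTN4), 2.29 (NRXN3 to NLGN1) and 5.59 (NLGN1 to CBLN4).

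**Figure D1:**
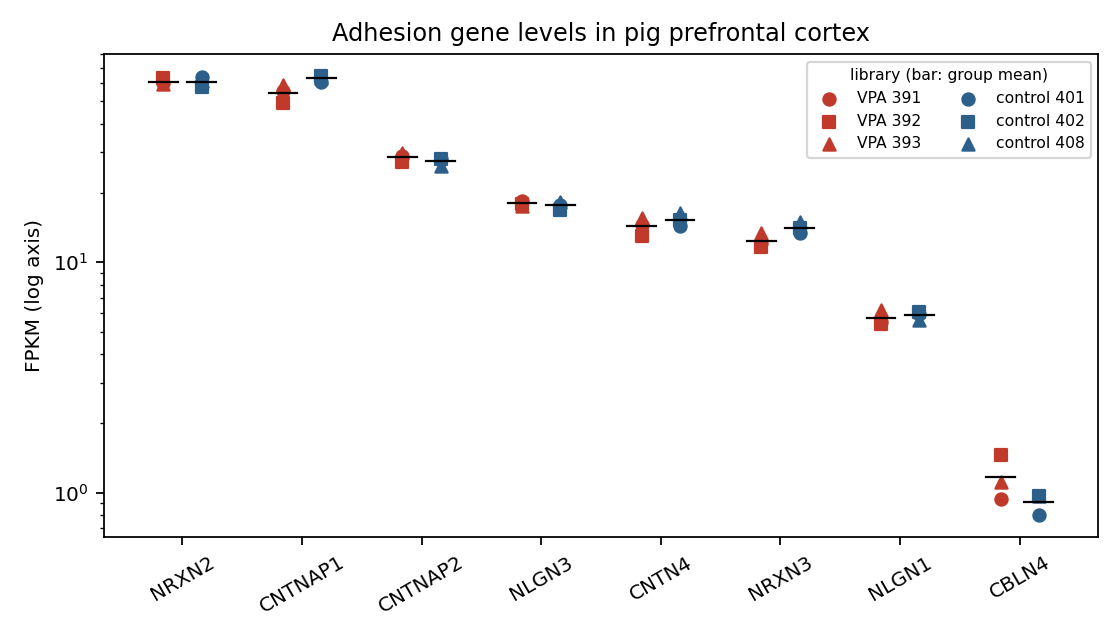
FPKM (log axis) of the 8 genes in each of the 6 libraries, VPA in red and control in blue, with a bar at each group mean. NRXN2 and CNTNAP1 lie near 60 FPKM and CBLN4 near 1 FPKM, and the genes are spread far more widely than the groups within any gene.

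The number of reads limits how precisely each gene was measured. CNTNAP1 had between 5361 and 7492 reads per library and NRXN2 between 4944 and 5803, whereas CBLN4 had 43 to 71. The coefficient of variation over the 6 libraries was lowest for NLGN3 (3.18%) and NRXN2 (3.68%), reached 9.78% for CNTNAP1 and 9.07% for NRXN3, and was 21.8% for CBLN4. The FPKM values rest on deposited gene lengths between 3006 bases (CBLN4) and 16120 bases (NRXN3). Neurexin genes make long and short isoforms from separate promoters, and gene-level counts do not separate them.

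None of the 8 genes passed the test between VPA and control cortex. In edgeR's quasi-likelihood test across all genes, 0 of 8 had an adjusted p below 0.05 (Benjamini-Hochberg), where 0.362% of all tested genes did (0.278% higher and 0.0835% lower in VPA). At an unadjusted p below 0.05 there were 2, CNTNAP1 and NRXN3, both lower in VPA. These are 25.0% of the 8, beside 16.1% of all tested genes in either direction and 7.45% that were lower. DESeq2 called CNTNAP1 alone (3.64% of all genes with an adjusted p), and limma on voom weights or on FPKM called 0. At an unadjusted p below 0.05 DESeq2 had the same 2 genes. Beside them stood 1872 of the 14373 genes that passed the filter, or 11% of all genes with a p when the filtered ones are counted too. The median log2 fold change of the 8 was -0.033, with 3 positive and 5 negative. Over all tested genes the median was 0.0018, with 49.5% negative.

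Among the neurexin genes, NRXN2 had close means in the 2 groups, 309.4 ± 10.3 CPM in VPA and 308.9 ± 14.8 CPM in controls (SD, n = 3 each). It had 305 CPM in VPA 391, 321 in VPA 392 and 302 in VPA 393, against 323, 293 and 311 CPM in controls 401, 402 and 408. The control range contained all 3 VPA values. Its log2 fold change was -0.0099 ± 0.051 (SE; edgeR adjusted p = 0.95), and the 95% interval of the ratio of VPA to control ran from 0.918 to 1.07. With 1 library left out the log2 fold change lay between -0.051, without control 402, and 0.012, without VPA 393.

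NRXN3 had its 3 lowest values in the VPA libraries, short of the test's threshold. It had 196 CPM in VPA 391, 188 in VPA 392 and 216.89 in VPA 393, against 216.91 CPM in control 401, 227 in control 402 and 240 in control 408. The groups only just separated: VPA 393 lay below control 401 by 0.018 CPM, less than 1 read, or by 2.62 CPM after scaling with edgeR's TMM factors. The means were 200.2 ± 15.05 CPM in VPA and 228 ± 11.7 CPM in controls (SD, n = 3 each). The log2 fold change was -0.20 ± 0.061 (edgeR adjusted p = 0.15, unadjusted p = 0.0078), with a 95% interval of the ratio from 0.793 to 0.956. Over 20 alternatives it ran from -0.26, without VPA 393, to -0.10, with a score of oligodendrocyte markers as a covariate, and the gene passed in 0 of them. In the 4 libraries with EIF1AY counts the log2 fold change was -0.20 ± 0.068 (edgeR adjusted p = 0.26).

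Both neuroligin genes overlapped between the groups. NLGN1 had 56.2, 54.8 and 63.1 CPM in VPA 391, 392 and 393 and 60.6, 61.8 and 57.0 CPM in controls 401, 402 and 408. VPA 393 was the highest library and VPA 392 the lowest, so that the VPA animals spanned the controls. The log2 fold change was -0.056 ± 0.071 (edgeR adjusted p = 0.75) and the interval of the ratio 0.863 to 1.07. It was -0.11 without VPA 393, -0.088 without control 408, -0.037 without control 402 and -0.017 without VPA 392. NLGN3, whose product is found at both excitatory and inhibitory synapses, had 181, 176 and 173 CPM in VPA 391, 392 and 393 and 174, 166 and 180 CPM in controls 401, 402 and 408. Again the groups overlapped, with a log2 fold change of 0.017 ± 0.050 (edgeR adjusted p = 0.90) and an interval of the ratio from 0.937 to 1.09. The gene is X-linked in mammals, and the pair of libraries with next to no EIF1AY counts, VPA 392 and control 401, had 176 and 174 CPM, inside the range of the other 4 (166 to 181 CPM). With these libraries left out, its log2 fold change was 0.014.

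CNTNAP1 had the lowest p of the 8. It had 371 CPM in VPA 391, 329 in VPA 392 and 397 in VPA 393, against 408 CPM in control 401, 432 in control 402 and 426 in control 408. Every VPA library lay below every control, by at least 11.7 CPM, and the VPA libraries were spread more widely (365.6 ± 34.0 against 422 ± 12.4 CPM, SD, n = 3 each). The log2 fold change was -0.22 ± 0.065 (edgeR adjusted p = 0.14, unadjusted p = 0.0067), and the 95% interval of the ratio ran from 0.776 to 0.949. By unadjusted p the gene ranked 693 of 14373. DESeq2 gave a log2 fold change of -0.22 with an adjusted p of 0.032. Without VPA 392, the lowest library, edgeR's log2 fold change was -0.15 (adjusted p = 0.34), and over the other libraries left out in turn it ran to -0.28, without VPA 393 (adjusted p = 0.091). In the 4 libraries with EIF1AY counts, which leave out VPA 392 and control 401, it was -0.18 ± 0.060 (edgeR adjusted p = 0.25).

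CNTNAP2 overlapped between the groups. It had 262, 248 and 271 CPM in VPA 391, 392 and 393 and 256, 256 and 239 CPM in controls 401, 402 and 408. The VPA libraries included the highest, and the lowest was control 408. The log2 fold change was 0.045 ± 0.050 (edgeR adjusted p = 0.71), with an interval of the ratio from 0.955 to 1.11. It was 0.015 without control 408, 0.021 without VPA 393, 0.029 without VPA 391 and 0.078 without VPA 392, and 0.087 in the 4 libraries with EIF1AY counts. CNTN4 had 87.4, 78.8 and 93.7 CPM in VPA 391, 392 and 393 and 86.8, 91.8 and 99.2 CPM in controls 401, 402 and 408. Its lowest library was VPA 392 and its highest control 408, with the others mixed. The log2 fold change was -0.11 ± 0.074 (edgeR adjusted p = 0.51). With 1 library left out it ran from -0.16, without control 401, to -0.045, without VPA 392.

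**Figure D2:**
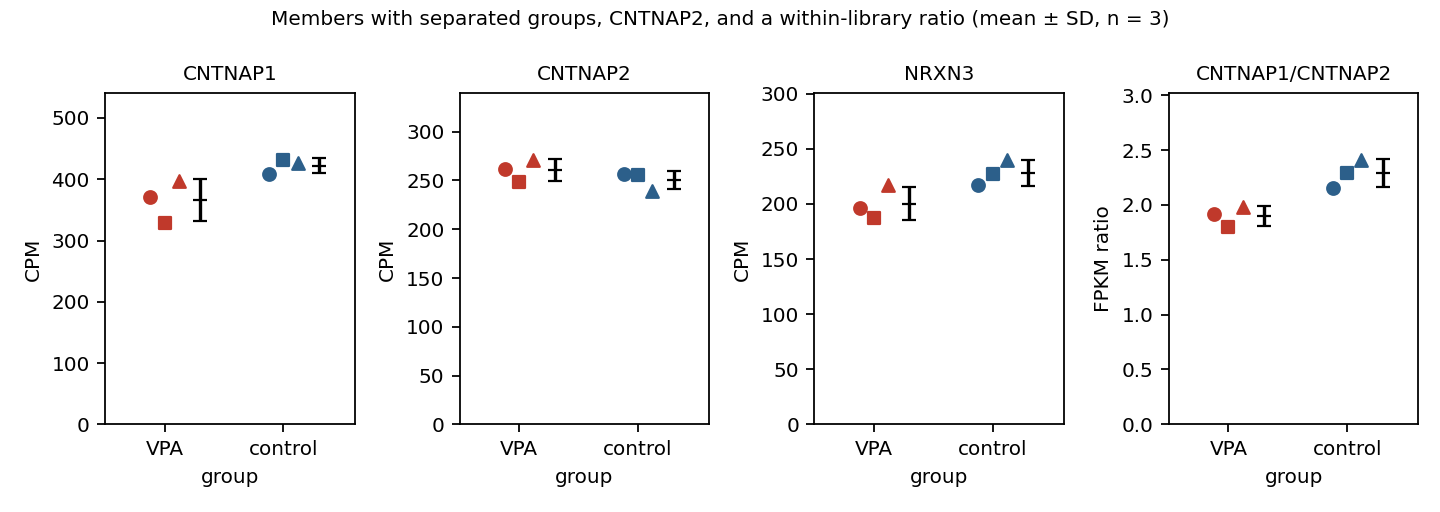
CPM of CNTNAP1, CNTNAP2 and NRXN3 and the FPKM ratio of CNTNAP1 to CNTNAP2 in each library (points, with mean ± SD of 3 libraries beside them, axes from 0). CNTNAP1 and the ratio separate the groups, NRXN3 does so by less than 1 read's worth, and CNTNAP2 overlaps.

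Groups without overlap were seen in 2 of the 8 genes, CNTNAP1 and NRXN3, both lower in VPA, or 25.0%. Over all tested genes the groups did not overlap in 21.2%, and VPA was the lower group in 9.07%. With TMM-scaled CPM the same 2 genes had separate groups, beside 21.4% of all tested genes and 10.7% with VPA lower. The count of 2 in 8 is therefore near the share over all genes in either direction.

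CBLN4 was the least abundant of the 8. It had 2.81, 4.36 and 3.34 CPM in VPA 391, 392 and 393, from 47, 71 and 60 reads, and 2.39, 2.91 and 2.90 CPM in controls 401, 402 and 408, from 43, 49 and 51 reads. VPA 392 stood above the rest, while VPA 391 lay below 2 of the controls. The log2 fold change was 0.34 ± 0.24 (edgeR adjusted p = 0.52), the largest of the 8 in size, with an interval of the ratio from 0.879 to 1.83. It was 0.16 without VPA 392 and 0.061 in the 4 libraries with EIF1AY counts.

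**Figure D3:**
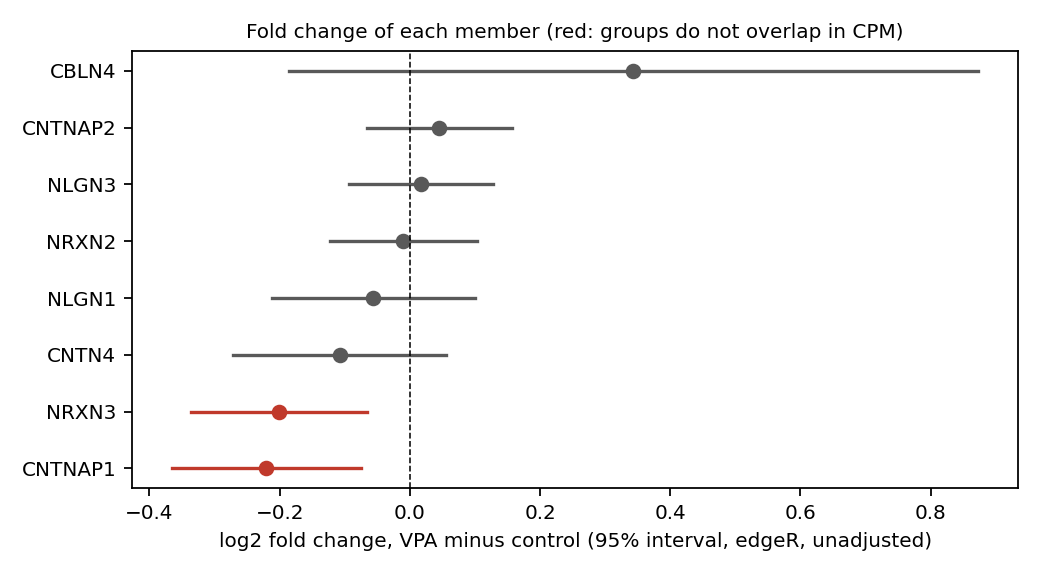
Log2 fold change (VPA minus control) of each gene with its unadjusted 95% interval from edgeR. The intervals of CNTNAP1 and NRXN3, in red because their groups do not overlap, lie below 0 without adjustment for the number of genes tested, and that of CBLN4 is the widest.

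A ratio of 2 genes within a library does not depend on its depth, and 3 such ratios were compared, NLGN3 to NLGN1 among them in place of a ratio with NLGN2. The FPKM ratio of CNTNAP1 to CNTNAP2 was 1.92, 1.80 and 1.98 in VPA 391, 392 and 393 and 2.16, 2.29 and 2.41 in controls 401, 402 and 408. All VPA values lay below all control values, a difference of -0.27 on the log2 scale (two-sided exact permutation p = 0.10, the smallest that 3 against 3 can give, or 0.30 adjusted over the 3 ratios). It kept its sign with each library left out in turn, from -0.31 to -0.23. The ratio of NRXN2 to NRXN3 was 4.93 ± 0.504 in VPA and 4.31 ± 0.356 in controls, with overlapping groups (exact permutation p = 0.20, adjusted 0.30). That of NLGN3 to NLGN1 was 3.18 ± 0.291 and 3.01 ± 0.244 (exact permutation p = 0.50, adjusted 0.50).

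The libraries did not all depart from the mean in the same way. VPA 392 was the lowest of the 6 libraries in 4 of the 8 genes, CNTNAP1, NRXN3, NLGN1 and CNTN4, and the highest in CBLN4. In log2 CPM relative to the mean of the 6 libraries, it stood at -0.25 for CNTNAP1, -0.19 for NRXN3 and -0.18 for CNTN4. VPA 393, by contrast, lay at 0.016 for CNTNAP1, 0.024 for NRXN3 and 0.069 for CNTN4, closer to the controls than to VPA 392.

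Most glial markers had positive fold changes in the comparison in which CNTNAP1 and NRXN3 had negative ones. Of the 27 tested 0 passed in edgeR, beside 0.362% of all tested genes. At an unadjusted edgeR p below 0.05 there were 18, or 66.7%, all higher in VPA, beside 8.69% of all tested genes that were higher. DESeq2 called 9, beside 3.64% of all genes with an adjusted p. All 12 oligodendrocyte markers had positive fold changes (median log2 fold change 0.36), and their summed level was 17054 to 19221 CPM in VPA and 13080 to 17590 CPM in controls. Of 8 oligodendrocyte precursor markers 7 were positive (649 to 789 CPM in VPA, 532 to 654 in controls), and of 7 astrocyte markers 6 were (8203 to 9518 against 7557 to 8248 CPM). The sums of the groups overlapped in each of these 3 lists. VPA 392 had the highest sum in all 3. Of 8 microglia markers 6 were positive (414 to 428 CPM in VPA, 335 to 426 in controls). None of these markers, nor of the neuronal ones, was at 0 in all libraries. In bulk tissue fewer cells of a type and less RNA per cell cannot be told apart.

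Neuronal marker lists differed in direction. Of 8 glutamatergic markers 6 had negative fold changes (median -0.16), 4 of them at an unadjusted edgeR p below 0.05. By that rule 7.45% of all tested genes were lower in VPA and 8.69% higher. The sum was 3670 to 4011 CPM in VPA and 3920 to 4026 CPM in controls. Of 10 GABAergic interneuron markers 8 were positive, and 0 of the 10 had an unadjusted edgeR p below 0.05. The sums were 785 to 820 CPM in VPA and 732 to 765 in controls, without overlap. Taken singly, 2 of the 10 had groups without overlap, beside 21.2% of all tested genes. All 10 tested striatal markers were positive, 7 of them at an unadjusted edgeR p below 0.05, beside the same 8.69% of all tested genes. The sums were 214 to 626 CPM in VPA and 179 to 207 in controls, also without overlap, and VPA 393 was far above the rest. With the mean log2 level of the oligodendrocyte markers as a covariate, the log2 fold change of CNTNAP1 was -0.10 ± 0.11 and that of NRXN3 -0.10 ± 0.10, while that of NRXN2 was -0.13 ± 0.081 and that of CNTN4 0.0017 ± 0.13. The standard errors were wider than in the main fit (0.065 for CNTNAP1 and 0.061 for NRXN3). All 12 markers of the score had positive fold changes, so the score goes partly with the group and the fit cannot fully separate them. The part of cell composition in these differences was not tested beyond this fit, which leaves 3 residual degrees of freedom.

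**Figure D4:**
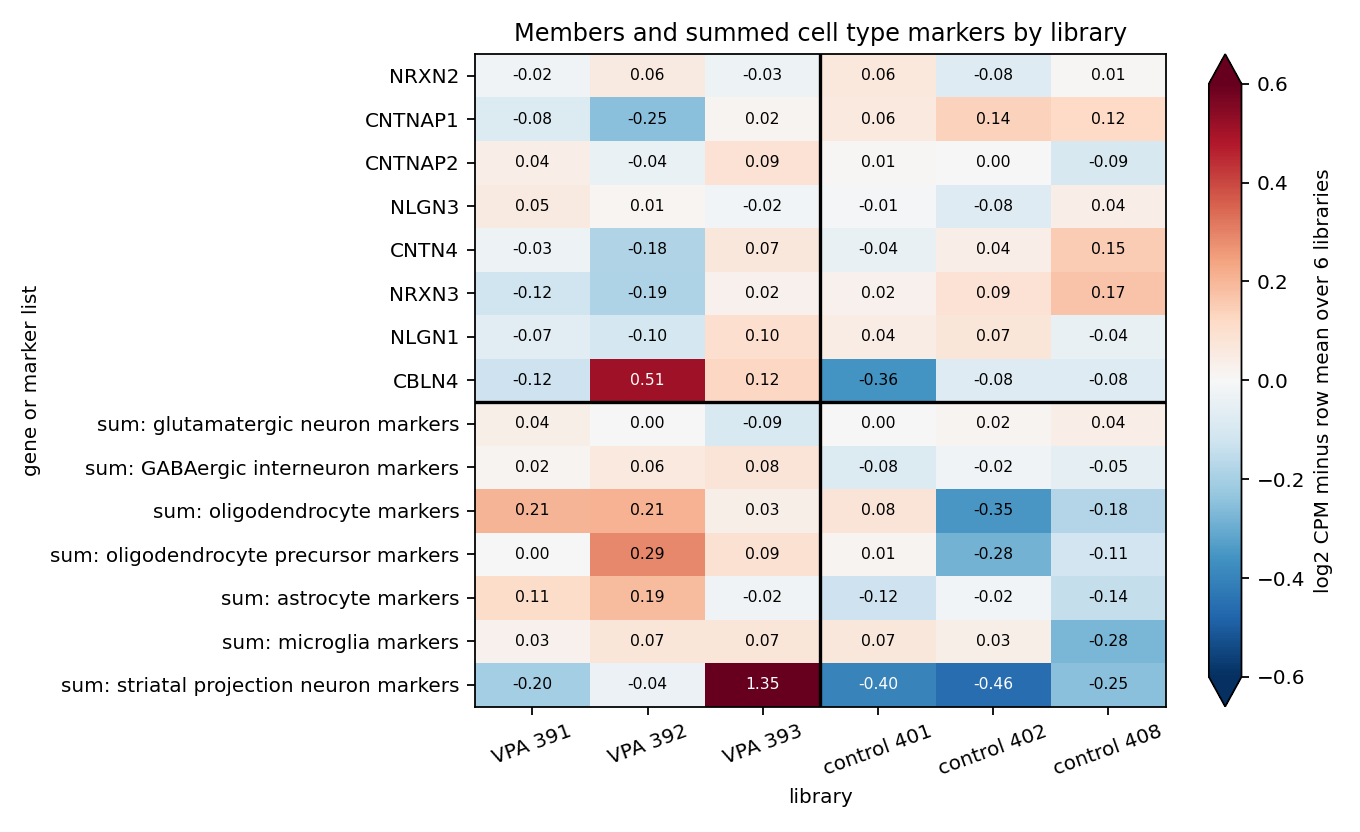
Log2 CPM minus the mean of the 6 libraries for each of the 8 genes (upper rows) and for the summed CPM of each marker list (lower rows), by library. VPA 392 is low for CNTNAP1, NRXN3 and CNTN4 and high for the oligodendrocyte, precursor and astrocyte sums, and the striatal sum stands out in VPA 393, whose value of 1.35 lies beyond the colour scale.

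The wider set of synaptic and axonal adhesion genes had more negative than positive fold changes, without a gene passing. Of 122 partner genes tested in 5 lists, 0 had an adjusted p below 0.05 in edgeR, and 10 were higher and 36 lower at an unadjusted p below 0.05. DESeq2 called 9, beside 3.64% of all genes with an adjusted p. The 36 are 29.5% of the lists, where 7.45% of all tested genes were lower and 8.69% higher by the same rule. The lists were chosen with earlier results of these data known, so these shares are description and not a test. Negative fold changes were seen in 90 of the 122 (73.8%), beside 49.5% of all tested genes. The median was -0.076, beside 0.0018 over all tested genes. In the same libraries most glial, GABAergic and striatal markers had positive fold changes and most glutamatergic markers negative ones. The part of cell composition in these lists was not tested beyond the fit with the oligodendrocyte score, which cannot fully separate score and group. With this score as a covariate 0 of the 122 passed in edgeR, as in the main fit. Of the 15 partner genes named below 4 moved by over 1.5 times: PTPRZ1 to 0.10 ± 0.093, MDGA1 to 0.073 ± 0.16, SLITRK5 to -0.13 ± 0.13 and CBLN2 to -0.13 ± 0.10. CLSTN2 (-0.27 ± 0.099), CHL1 (-0.26 ± 0.10) and SHANK3 (0.30 ± 0.084) were among the 11 that moved by less.

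The list of other neurexin ligands and relatives, which holds the remaining cerebellins, the leucine-rich repeat proteins LRRTM, the neurexophilins, the calsyntenins, the latrophilins and the glutamate delta receptors, had 21 of 26 negative (median -0.12, 10 lower and 1 higher at an unadjusted p below 0.05, 2 called by DESeq2). CLSTN2, a calsyntenin of the postsynaptic membrane, had 158 to 169 CPM in VPA, against 183 to 204 in controls (log2 fold change -0.24 ± 0.054, edgeR adjusted p = 0.077). CBLN2, a cerebellin that binds neurexins, had 63.9 to 67.4 CPM in VPA and 72.9 to 77.6 in controls (-0.21 ± 0.058, edgeR adjusted p = 0.12). CLSTN1 had 1628 to 1704 CPM and 1803 to 1881 CPM (-0.17 ± 0.049, edgeR adjusted p = 0.13). In these 3 genes, taken for their low p, every VPA library was below every control, while CBLN4 had its point estimate on the other side of 0.

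Neuroligin regulators were split, with 4 of 8 positive (median 0.095, 2 higher and 2 lower at an unadjusted p below 0.05, 1 called by DESeq2). HSPG2, which encodes the basement membrane proteoglycan perlecan, had 59.7 to 65.2 CPM in VPA, against 50.8 to 51.4 in controls (log2 fold change 0.27 ± 0.062, edgeR adjusted p = 0.079). The MDGA proteins bind neuroligins and keep neurexins from them. MDGA2 had 17.6 to 22.2 CPM in VPA and 23.6 to 24.5 in controls (-0.28 ± 0.099, edgeR adjusted p = 0.20), whereas MDGA1 had 30.41 to 36.7 CPM in VPA and 28.00 to 30.41 in controls (0.22 ± 0.090, edgeR adjusted p = 0.26), so that these relatives had point estimates of opposite sign. With the oligodendrocyte score MDGA1 stood at 0.073 ± 0.16 and MDGA2 at -0.26 ± 0.18.

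Among 21 intracellular partners, the scaffolds that anchor neurexins and neuroligins, 14 were negative (median -0.011, 4 lower and 3 higher at an unadjusted p below 0.05, 3 called by DESeq2). SHANK3, a postsynaptic scaffold, had 159.6 to 160.4 CPM in VPA, against 133 to 140.2 in controls (log2 fold change 0.23 ± 0.047, edgeR adjusted p = 0.065). EPB41L2, a membrane skeleton protein, had 210.1 to 229 CPM and 186 to 192 CPM (0.22 ± 0.050, edgeR adjusted p = 0.079). DLGAP1, which links PSD-95 to SHANK proteins, had 296 to 312 CPM in VPA and 341 to 366 in controls (-0.21 ± 0.049, edgeR adjusted p = 0.083). The 3 genes are those with the lowest p of the list. DESeq2 called each of them from the same counts, which is no separate support.

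Contactins and proteins of the node of Ranvier had 20 of 28 negative (median -0.059, 10 lower and 2 higher at an unadjusted p below 0.05, 2 called by DESeq2). CHL1, an L1-family adhesion molecule, came closest to the threshold of all 122 genes, with 338 to 383 CPM in VPA, against 436 to 457 in controls (log2 fold change -0.31 ± 0.056, edgeR adjusted p = 0.052). It passed in 4 of 20 alternatives, with adjusted p from 0.00011 to 0.66. PTPRZ1, a receptor phosphatase that binds contactins and is found on glia, had 393 to 444 CPM and 320 to 359 CPM (0.27 ± 0.062, edgeR adjusted p = 0.078, and 0.10 ± 0.093 with the oligodendrocyte score). CNTN3 had 23.1 to 25.1 CPM in VPA and 28.7 to 31.3 in controls (-0.32 ± 0.078, edgeR adjusted p = 0.097).

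Other genes of the paranode and juxtaparanode were looked up after their values had been seen. CNTN1, which pairs with CNTNAP1 at the paranode, had 624 ± 12.7 CPM in VPA and 681 ± 43.2 in controls (log2 fold change -0.14 ± 0.054, edgeR adjusted p = 0.25). NFASC, whose glial isoform faces that pair, had 586 ± 23.4 and 564 ± 52.1 CPM (0.043 ± 0.064, edgeR adjusted p = 0.79). Gene-level counts do not separate its isoforms. For CNTNAP2, the juxtaparanodal partner CNTN2 had a log2 fold change of -0.058 ± 0.056 (edgeR adjusted p = 0.67) and the potassium channel genes KCNA1, KCNA2 and KCNAB2 had -0.023 ± 0.045, -0.20 ± 0.070 and -0.063 ± 0.056 (edgeR adjusted p = 0.84, 0.20 and 0.63). All 6 had overlapping groups, unlike CNTNAP1. Point estimates were negative in all except NFASC, beside 71.4% of the list of contactins and node proteins and 49.5% of all tested genes. As the values were known beforehand, this is description and not a test.

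Other trans-synaptic adhesion genes had 31 of 39 negative (median -0.091, 10 lower and 2 higher at an unadjusted p below 0.05, 1 called by DESeq2). SLITRK1 had 69.3 to 75.8 CPM in VPA, against 78.8 to 86.1 in controls (log2 fold change -0.21 ± 0.060, edgeR adjusted p = 0.13). Its relative SLITRK5 had 69.0 to 85.0 and 88.2 to 97.0 CPM (-0.26 ± 0.078, edgeR adjusted p = 0.14). The postsynaptic adhesion gene LRFN2 had 20.7 to 21.3 CPM in VPA and 24.0 to 26.7 in controls (-0.28 ± 0.082, edgeR adjusted p = 0.14). SLITRK proteins bind receptor tyrosine phosphatases of the presynaptic side rather than neurexins.

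**Figure D5:**
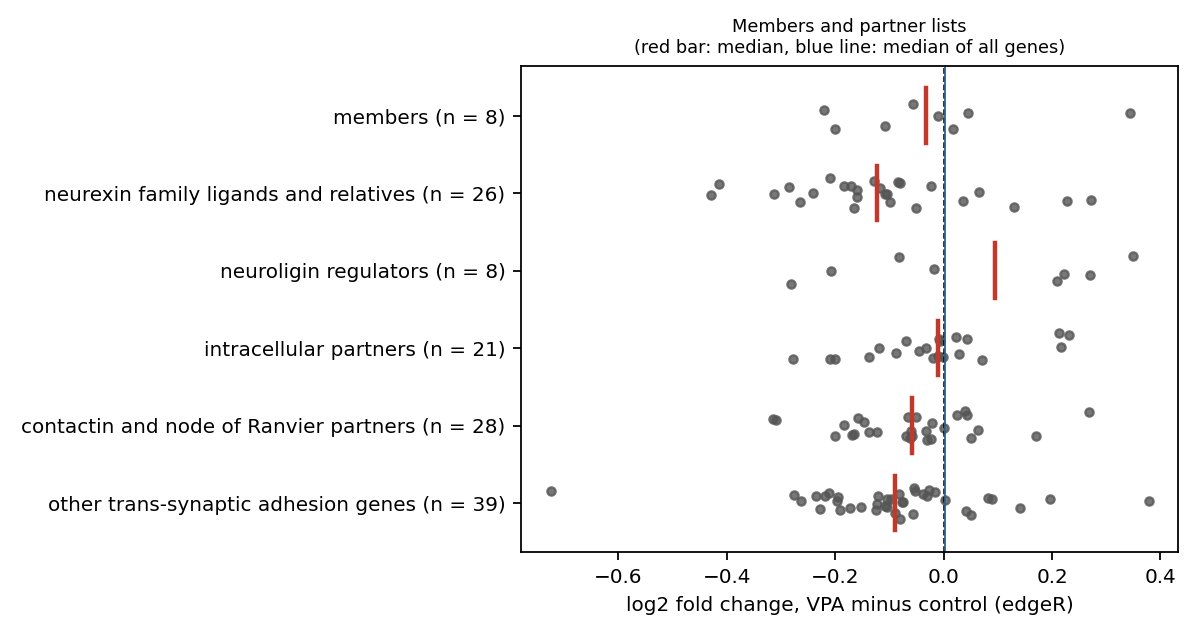
Log2 fold change (VPA minus control) of each tested gene in the set of 8 and in the 5 partner lists, with the list's median as a red bar and the median of all tested genes as a blue line. The medians run from -0.12 for neurexin ligands and relatives to 0.095 for neuroligin regulators, and single genes spread to both sides in every list.

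The genes most like CNTNAP1 and NRXN3 across the 6 libraries were found from log2 CPM centred on each gene's mean, by the root mean square difference over the 6 libraries, among 13793 other genes with a mean of at least 1 CPM. For CNTNAP1 they were MEF2C, a neuronal transcription factor gene, at 0.025, OPCML, an IgLON adhesion gene, at 0.025, and ZNF148, a zinc finger gene, at 0.028. A flat profile would stand at 0.134 from CNTNAP1, and 3323 of the 13793 genes were nearer than that. For NRXN3 they were ENTPD3, an ectonucleotidase gene, at 0.011, PLCH1, a phospholipase C gene, at 0.015, and CNKSR2, a synaptic scaffold gene, at 0.016. A flat profile would stand at 0.121 from NRXN3, and 3146 of the 13793 genes were nearer than that. All 6 named genes were lowest in VPA 392, as CNTNAP1 and NRXN3 were, which follows from their being picked for these profiles. None of the 6 had an adjusted p below 0.05 in edgeR (0.10 to 0.30).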

How the data were processed

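Raw counts and FPKM, both per gene, are the units the authors deposited, 1 file of each per library, as the file headers and names show. All 97071 nonzero FPKM values equalled count divided by library total and a whole-number gene length (tolerance 0.001). The labels' protocols name TRIzol extraction and a VAHTS Universal V6 library kit. The aligner, counter, strandedness, build and annotation behind the counts: not given in the sources used here. Names turned into dates (24, up to 0.347% of counts) stayed in the totals.

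CPM used file totals. Counts were tested in R 4.3.3 with edgeR 4.0.16 (filterByExpr, TMM factors 0.993 to 1.01, glmQLFit, glmQLFTest, 4 residual degrees of freedom, Benjamini-Hochberg over 14373 genes). Standard errors and 95% intervals came from the F statistic. Alternatives were other scalings and filters, DESeq2 1.42.0, limma 3.58.1, robust dispersion, covariates and each library left out. The 4 libraries with EIF1AY counts and the ratio of NLGN3 to NLGN1 were added after seeing the data. The fit was tested on simulated counts. All pairs of libraries differed by more than sampling noise (chi-square per degree of freedom 5.74 to 12.8).

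The genes and lists were chosen with earlier results of these data known. Named are all 8 genes, in each partner list every called gene and otherwise the 3 with the lowest p, and for the 2 genes with the lowest p the 3 nearest profiles. CNTN1, NFASC, CNTN2, KCNA1, KCNA2 and KCNAB2 were added by name after their values had been seen. P-values measure the spread between these animals. Reads shared by overlapping genes cannot be separated here. Some items are not reported here.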

Additional observations from a re-analysis of the deposited data

How the results depend on the processing

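No paired analysis was possible because the animal numbers are not shared between the groups. Of the 8 genes, 0 passed at 0.05 in edgeR under any alternative or with limma, and 0 were below 0.10 in the main fit. In edgeR alternatives, adjusted p was below 0.10 for CNTNAP1 (0.074 with EIF1AY as a covariate, 0.091 without VPA 393) and NRXN3 (0.091 without VPA 393). DESeq2 called 1 (CNTNAP1), and CBLN4 had no adjusted p there. The number of all genes called, 52, was 141 without a filter, 444 in DESeq2, 30 with limma-voom, 2 with limma on log2(FPKM + 1) or log2(FPKM + 0.1), 1 with limma without a filter, 168 with robust dispersion and 2 with the oligodendrocyte score. It ran from 0 to 66 with 1 library left out (0 without VPA 391 and without VPA 392, with 1897 and 1719 genes at an unadjusted p below 0.05) and was 0 in the 4 libraries with EIF1AY counts (1919 unadjusted). Partner genes called were 0 in the main design, 1 without a filter, 9 in DESeq2, 2 with robust dispersion, 1 with EIF1AY as a covariate and from 0 to 1 with 1 library left out (1 without control 401). CNTNAP1, NRXN3, CNTNAP2 and CBLN4 kept their sign in all 20 alternatives. The near-zero fold change of NRXN2 turned to 0.0025 with file totals, 0.0031 with limma on log2(FPKM + 1), with or without a filter, and 0.0032 on log2(FPKM + 0.1), and ran from -0.051 to 0.012 with 1 library left out. With the oligodendrocyte score, NLGN1 turned to 0.025, NLGN3 to -0.049 and CNTN4 to 0.0017. That of NLGN3 ran from -0.019 to 0.046 with 1 library left out. The order of levels and its overlaps were the same in TPM, a scaling that cannot change the order within a library. CBLN4 had the fewest reads of the 8 genes, 43 to 71 per library, and the depth behind its values is the lowest.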
